A study of Mus musculus with 6 samples.

Results

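The genes described here are 10 components of the NOTCH pathway. They are the receptor genes Notch1, Notch2 and Notch3, the nuclear mediators Rbpj and Maml1, and the targets Hes1, Hes5, Hey1, Dtx1 and Nrarp. They were chosen by name, as the probes whose platform gene symbol is one of these, leaving out the targets Myc and Ptcra. The rule found 15 of the 45281 probes and all 10 genes of the 19057 gene symbols on the array. A gene was tested where at least 3 of the 6 arrays detected its probe at a detection p under 0.05, which 8 of the 10 genes did, among 10209 genes in all.

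RNA from C57 BL6 mice was hybridised to 6 Illumina mouse bead arrays, which the titles call biological replicates without saying whether each holds 1 animal, so p-values measure the spread between these samples. The series concerns N-Me, an enhancer of Myc that NOTCH1 binds. Wild-type mice (WT, n = 3) received corn oil alone, and conditional knockout mice for the enhancer (KO, n = 3) received tamoxifen in corn oil at 3 mg/kg, each injected into the peritoneum 40 h before processing. Genotype and tamoxifen changed together, so their effects cannot be told apart. The labels name no tissue, no age and no recombinase driver. Across genes, Pearson's r was 0.99 to 0.993 between WT arrays, 0.984 to 0.991 between KO arrays and 0.95 to 0.969 across the groups. Each array detected 18215 to 19486 probes. Of 13 T cell markers, 12 had a probe under their symbol, all but Lck, and 10 were detected well enough to be tested. None of the 10 tested T cell markers passed the test between groups by limma, and 2 had an unadjusted p under 0.05.

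NOTCH receptors are cut when a ligand on a neighbouring cell binds them, and the freed intracellular part enters the nucleus. There it joins the DNA-binding protein RBPJ and a Mastermind coactivator (MAML) and switches on genes such as those of the HES and HEY repressors. NOTCH1 is required for cells to enter the T lineage in the thymus, and activating NOTCH1 mutations drive T cell leukemia, where Myc is a direct target.

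For 4 of the tested genes, the 300 bases around the annotated start are shown, because Hes5 and Notch1 changed between the groups and Dtx1 and Nrarp did not pass the test. The windows run from 250 bases before to 50 after the start and come from RefSeq on build GRCm38.p6, each read 5′ to 3′ on the gene's own strand. They lie at chr4:154960673-154960972 on the plus strand for Hes5, chr2:26503773-26504072 on the minus strand for Notch1, chr5:120711620-120711919 on the minus strand for Dtx1 and chr2:25180508-25180807 on the plus strand for Nrarp. Capitals mark TGGGAA, the core letters that RBPJ binds, on either strand, and CACGTG, the E-box that MYC and other factors bind.
Hes5: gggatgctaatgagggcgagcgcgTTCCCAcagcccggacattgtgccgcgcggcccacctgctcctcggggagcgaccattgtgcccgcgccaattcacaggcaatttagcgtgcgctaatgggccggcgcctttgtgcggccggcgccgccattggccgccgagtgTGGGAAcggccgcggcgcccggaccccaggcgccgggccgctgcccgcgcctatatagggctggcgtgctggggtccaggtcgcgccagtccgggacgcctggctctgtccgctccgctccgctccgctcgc
Notch1: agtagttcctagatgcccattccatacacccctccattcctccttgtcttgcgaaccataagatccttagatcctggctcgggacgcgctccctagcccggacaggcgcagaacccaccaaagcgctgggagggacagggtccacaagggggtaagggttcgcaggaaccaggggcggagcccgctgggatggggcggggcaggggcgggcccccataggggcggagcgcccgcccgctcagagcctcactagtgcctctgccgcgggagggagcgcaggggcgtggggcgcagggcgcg
Dtx1: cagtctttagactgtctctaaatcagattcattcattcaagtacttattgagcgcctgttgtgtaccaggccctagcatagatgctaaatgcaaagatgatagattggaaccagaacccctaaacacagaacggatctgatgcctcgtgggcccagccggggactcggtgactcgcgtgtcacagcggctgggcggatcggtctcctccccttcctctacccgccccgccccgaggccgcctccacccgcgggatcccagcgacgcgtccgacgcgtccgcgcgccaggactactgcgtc
Nrarp: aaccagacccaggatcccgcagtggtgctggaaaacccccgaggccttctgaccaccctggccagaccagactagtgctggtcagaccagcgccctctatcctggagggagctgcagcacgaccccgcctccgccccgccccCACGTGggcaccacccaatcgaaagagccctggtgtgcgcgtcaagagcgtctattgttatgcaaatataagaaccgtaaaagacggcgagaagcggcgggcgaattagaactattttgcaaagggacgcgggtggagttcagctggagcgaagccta
Windows were at hand for 8 of the 10 genes, all but Hes1 and Hey1. The Hes5 window holds 2 matches to TGGGAA, at bases -226 and -82 from the start, on opposite strands. At least 1 such match occurs in 25.6% of the 32851 windows of this length and at least 2 occur in 3.79%. Of the other windows, those of Rbpj, which has 2 overlapping windows, hold 2 and 1 matches, and those of Notch1, Notch2, Notch3, Maml1, Dtx1 and Nrarp hold none. The Nrarp window alone among these holds an E-box, at base -108, which 7.15% of all windows hold. Such matches describe these letters only, and a window without them says nothing about binding elsewhere.

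Among the members, Notch1, Hes1 and Hes5 fell in KO, Hey1 rose, and Notch3, Maml1, Dtx1 and Nrarp did not pass the test. Thus 3 of 8 tested members were lower and 1 was higher. Over all 10209 genes tested, 17.1% were lower and 19.7% higher at an adjusted p under 0.05, so 36.9% were called in either direction. The median change of the 8 members was -0.25 on the log2 scale, against 0.0011 over all genes. Normalized log2 signals of the 3 WT arrays and the 3 KO arrays did not overlap for 6 of the 8 members, against 50.5% of all genes. With 3 arrays against 3, the exact 2-sided permutation test of a single gene cannot go below p = 0.1, so the adjusted p-values below come from the limma fit over all genes.

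**Figure D1:**
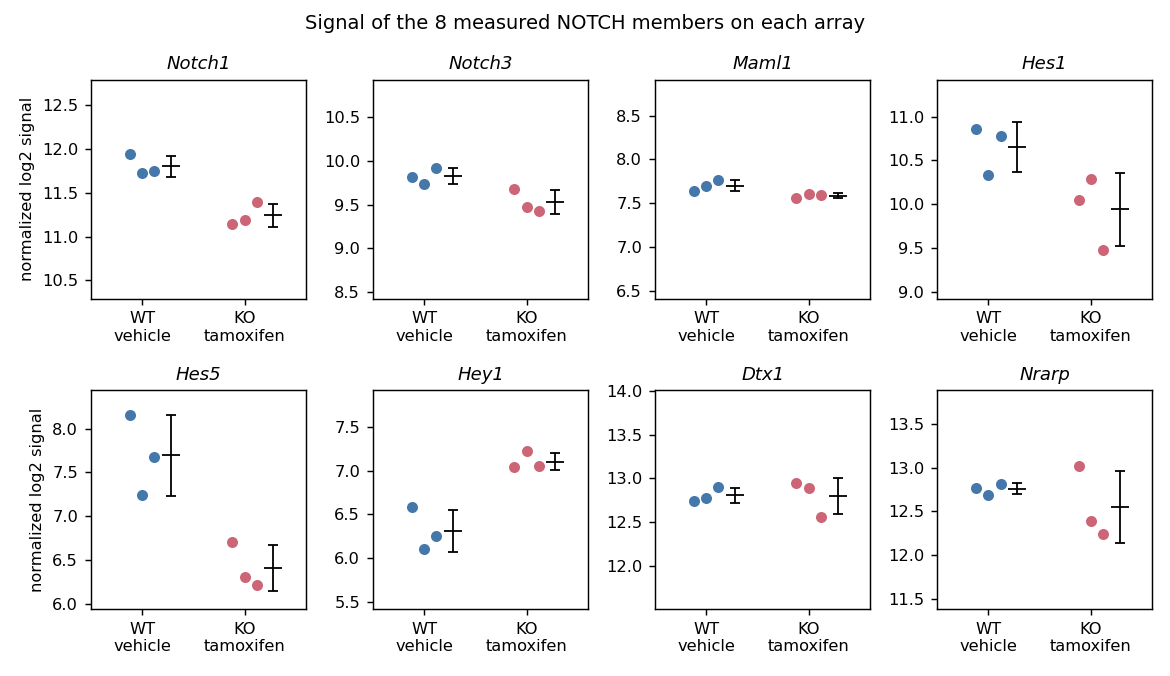
Normalized log2 signal (vertical axis, 2.5 log2 units in each panel) of the 8 measured members on the 3 WT vehicle arrays (blue) and the 3 KO tamoxifen arrays (red). Each point is 1 array, and the bar beside the points is the mean with 1 SD. Notch1, Hes1 and Hes5 sit lower in KO and Hey1 higher, while Dtx1 and Nrarp overlap between the groups.

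The receptors were examined first. Notch1, the receptor whose binding defines the enhancer, read normalized log2 signals of 11.94, 11.72 and 11.75 on the WT arrays and 11.14, 11.19 and 11.39 on the KO arrays. Every KO array lay below every WT array. The WT mean was 11.80 ± 0.12 (SD, n = 3) and the KO mean 11.24 ± 0.13 (SD, n = 3), so the KO signal was 67.8% of the WT signal. The log2 change was -0.56 ± 0.13 (SE; 95% interval -0.86 to -0.26), with a limma adjusted p of 0.0115. The call held with each array left out, with an adjusted p of 0.018 to 0.0498, the highest without WT replicate 1. This gene has 1 probe on the array, and where in the transcript it lies is not given in the sources used here.

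Notch3, a receptor gene that NOTCH signalling itself is known to activate in T cells, read 9.82, 9.74 and 9.92 in WT and 9.68, 9.47 and 9.43 in KO. The groups did not overlap, yet the difference of -0.30 ± 0.13 (SE) did not pass, with an adjusted p of 0.0982. Weighting the arrays by their quality gave -0.34 and a call (adjusted p = 0.0462), the exception among the 17 alternative settings. Its interval of -0.59 to -0.01 on the log2 scale lies below 0 before adjustment.

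Notch2, the receptor known for marginal zone B cells, was not detected by either of its 2 probes on any array. Their raw signals were 108.2 to 123.5, whereas the lowest raw signal called detected was 131.8 to 144.2 depending on the array. These probes therefore give no fold for Notch2.

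Among the nuclear mediators, Rbpj, which encodes the DNA-binding partner of all NOTCH receptors, was also not detected on any array by any of its 3 probes. Their raw signals were 100.8 to 132.5. Maml1, the Mastermind coactivator, read 7.64, 7.70 and 7.76 in WT and 7.56, 7.61 and 7.59 in KO. The small gap between the groups, -0.11 ± 0.11 (SE; 95% interval -0.37 to 0.15), did not pass, with an adjusted p of 0.467. A further Maml1 probe was detected on 1 KO array and on none of WT.

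The targets did not move together. Hes5, a basic helix-loop-helix repressor whose start-site window with 2 RBPJ core matches is printed above, had the largest change of the members. Its brighter probe read 8.16, 7.24 and 7.68 in WT and 6.71, 6.30 and 6.21 in KO. The KO arrays were all lower, although the WT arrays differed more among themselves than the KO arrays did. The change was -1.29 ± 0.24 (SE), a 2.44-fold fall, from 7.69 ± 0.46 (SD, n = 3) to 6.41 ± 0.27 (SD, n = 3), with an adjusted p of 0.00431. Its other probe read 7.58, 6.51 and 6.96 in WT and 5.74, 5.75 and 5.50 in KO. That is a change of -1.35 ± 0.25 (SE), with an adjusted p of 0.00504 over all kept probes, so both probes gave the fall. Both are dim, at 1.14 to 2.93 times the median raw signal of their array, and the size depends on the background correction. Without it the brighter probe was at -0.73 (adjusted p = 0.00429).

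Hes1, the related repressor through which NOTCH acts in T cell precursors, read 10.86, 10.33 and 10.78 in WT and 10.05, 10.29 and 9.48 in KO. The lowest WT array, replicate 2, and the highest KO array, replicate 2, lay close together. The mean went from 10.66 ± 0.28 (SD, n = 3) to 9.94 ± 0.41 (SD, n = 3), a change of -0.72 ± 0.23 (SE), or 60.8% of the WT signal, with an adjusted p of 0.0362. The call was lost without WT replicate 1 (-0.62, adjusted p = 0.12), WT replicate 3 (-0.65, 0.113) or KO replicate 3 (-0.49, 0.104). It was also lost with no filter on dim probes, where 19057 genes were tested (0.0808).

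Hey1, a HES-related repressor known as a NOTCH target of endothelium, moved the other way. It read 6.58, 6.11 and 6.25 in WT and 7.04, 7.22 and 7.05 in KO. All KO arrays were higher, and their spread was smaller than that of WT. The rise was 0.79 ± 0.15 (SE), or 1.73-fold, from 6.32 ± 0.24 (SD, n = 3) to 7.10 ± 0.10 (SD, n = 3), with an adjusted p of 0.005. Without background correction the rise was 0.40 (adjusted p = 0.0088).

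Markers of several other cell types also differed between the groups. In a bulk sample, fewer cells of a type and less RNA per cell cannot be told apart. All 6 tested endothelium markers were higher in KO, as Hey1 was. Among them Eng, a coreceptor of endothelium, rose by 0.96 ± 0.17 (SE), Pecam1, an adhesion molecule, by 0.66 ± 0.12 and the receptor gene Tek by 0.65 ± 0.13. The adjusted p-values were 0.00336, 0.00473 and 0.00589. Further Pecam1 probes were at 0.62 ± 0.16 (SE, adjusted p = 0.0174 over all kept probes) and 0.24 ± 0.14 (0.201). Their summed normalized signal was 1605 to 1652 in WT and 2546 to 2681 in KO, while Kdr was not detected. Of 7 tested fibroblast and pericyte markers, 4 rose, with a summed signal of 6342 to 10478 in WT and 11333 to 14806 in KO. By comparison, 19.7% of all genes tested were higher in KO. Most tested macrophage and erythroid markers also rose, with counts given below. The part of any of these cells in the rise of Hey1 was not tested.

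Beside the falls of Notch1, Hes1 and Hes5, the summed signal of the 10 T cell markers was 66543 to 69136 in WT and 66297 to 66575 in KO. Cd5 and Cd8a were not detected. Against 17.1% of all genes, 3 of 4 tested markers of immature thymocytes fell. These were Rag1, which cuts antigen receptor genes, at -2.80 ± 0.20 (SE, adjusted p = 0.000224), Ptcra, the pre-T receptor alpha chain, at -1.94 ± 0.20 (0.000667) and Dntt, the enzyme that adds bases at antigen receptor joints, at -1.25 ± 0.18 (0.00187). Cd1d1 rose by 0.51 ± 0.12 (SE, adjusted p = 0.0104). Of 5 tested macrophage markers 4 rose, with a summed signal of 3701 to 5672 in WT and 8018 to 11362 in KO. Of 5 erythroid markers 3 rose, with sums of 59133 to 65083 and 70384 to 76006. A rise also passed for 1 of 3 B cell markers and 1 of 2 NK cell markers, against 19.7% of all genes tested. Neither of the 2 tested epithelium markers passed, with 0 at an unadjusted p under 0.05. The part of cell make-up in the falls was not tested.

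**Figure D2:**
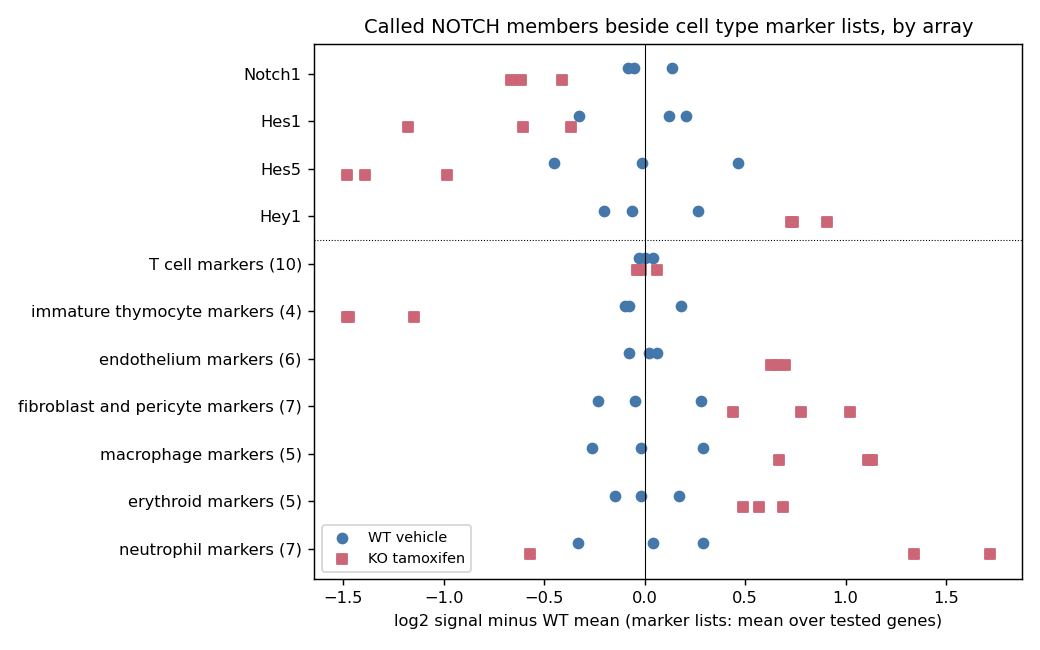
Log2 signal minus the WT mean (horizontal axis) for the 4 called members and for the mean of 7 marker lists, with the number of tested genes in brackets. Blue points are the 3 WT arrays and red squares the 3 KO arrays. T cell markers overlap between the groups, endothelium markers lie 0.63 to 0.70 above the WT mean on the KO arrays, and neutrophil markers split the KO arrays.

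Dtx1 and Nrarp, both known as direct targets of NOTCH1 in T cells, did not pass. Dtx1, which encodes a Deltex ubiquitin ligase, read 12.74, 12.78 and 12.90 in WT and 12.95, 12.89 and 12.56 in KO. The groups overlapped, and the change was -0.01 ± 0.14 (SE; 95% interval -0.33 to 0.32, adjusted p = 0.976). Its sign turned without WT replicate 3 (0.04) or KO replicate 3 (0.12), and it was at -0.16 when arrays were scaled to a common median. Its raw signals of 5929 to 8373 lay well under the highest signal of each array, 32166 to 36092, so the probe was not at the top of the scale.

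Nrarp, an ankyrin-repeat protein that acts back on the NOTCH complex, read 12.77, 12.69 and 12.81 in WT and 13.02, 12.39 and 12.24 in KO. Thus KO replicate 1 lay above every WT array and the other two below. The change was -0.21 ± 0.20 (SE; 95% interval -0.66 to 0.24, adjusted p = 0.444). Without KO replicate 1 it was -0.44 with an adjusted p of 0.0298, and without KO replicate 3 it was -0.05. KO replicate 1 also stood apart in the 7 neutrophil markers, whose summed signal was 3609 there against 12356 to 15351 on the other KO arrays and 4431 to 6427 in WT. None of the 7 passed by limma, with 0 at an unadjusted p under 0.05. The mean of the 3 tested B cell markers also set KO replicate 1 apart. Relative to the WT mean it was at 0.06 on the log2 scale there, against 1.75 and 1.07 on KO replicates 2 and 3. Among these markers Cd22 was higher on every KO array than on every WT array. The part of neutrophils or B cells in the Nrarp values was not tested.

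Within a group the members also differed from each other in how the arrays ranked. In WT, replicate 1 was the highest and replicate 2 the lowest for Notch1, Hes1, Hes5 and Hey1 alike. In KO, replicate 3 was the lowest for Notch3, Hes1, Hes5, Dtx1 and Nrarp but the highest for Notch1, at 0.15 above the KO mean on the log2 scale against -0.46 for Hes1. These are descriptions of 3 arrays a group.

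For the members with the largest changes, Hes5 and Hey1, the genes with the most similar values were found. Likeness was the root mean square difference of log2 values over the 6 arrays after centring each gene on its mean. The nearest to Hes5 were Clvs1, Irak1bp1 and Pacrgl, at 0.059, 0.12 and 0.12, with changes of -1.26 ± 0.26 (SE), -1.29 ± 0.28 and -1.16 ± 0.19. The nearest to Hey1 were Ampd1, Gal3st2 and Ephx2, at 0.065, 0.070 and 0.073, with rises of 0.76 ± 0.15, 0.70 ± 0.17 and 0.75 ± 0.15. Changes near those of Hes5 and Hey1 follow from this choice of genes and are not a separate result.

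Other genes of the pathway were taken from 8 lists of 77 genes, of which 59 were tested. Of these, 17 rose and 11 fell, or 28.8% and 18.6%, against 19.7% and 17.1% of all genes. Among the 17, Lfng, Tle2, Ctbp2 and Neurl1a were detected on the 3 KO arrays and no WT array, so they passed the detection filter only through the group where they were high. The number that rose was 14 where detection on all 6 arrays was required and 17 with no filter. The median change of the 59 was 0.15 on the log2 scale. Scaled to a common median, 11 rose, and Ep300, Furin, Tle4, Dtx3l and Mib2 were among those that no longer passed.

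Of the ligand genes, Dll1, a Delta-type ligand, rose by 0.80 ± 0.12 (SE, adjusted p = 0.00198). It read 5.82, 5.97 and 5.83 in WT and 6.74, 6.57 and 6.72 in KO. It was the single ligand tested, since Dll3 and Dll4 were not detected on any array and Jag1 and Jag2 on 1 each. Without background correction the Dll1 rise was 0.35.

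Of 7 further receptor and coactivator genes, 2 rose and 1 fell, or 28.6% and 14.3%, against 19.7% and 17.1% of all genes. Maml2, a second Mastermind coactivator, rose by 0.61 ± 0.14 (SE, adjusted p = 0.0109) and the acetyltransferase gene Ep300 by 0.44 ± 0.14 (0.0399), while the acetyltransferase gene Kat2a fell by 0.88 ± 0.15 (0.00326). The endothelial receptor gene Notch4 was at 0.46 ± 0.16 and did not pass (0.0561). Ep300 lost its call with each of 5 arrays left out in turn, all but KO replicate 3.

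Of 8 genes that cut the receptors, 3 rose and 1 fell, or 37.5% and 12.5%, against 19.7% and 17.1% of all genes. Psen2, a catalytic subunit of gamma-secretase, rose by 0.61 ± 0.14 (SE, adjusted p = 0.0115), the surface protease gene Adam17 by 0.56 ± 0.12 (0.00899) and the convertase gene Furin by 0.37 ± 0.13 (0.0476). Aph1a, another subunit of gamma-secretase, fell by 0.51 ± 0.13 (0.0184). A further Adam17 probe was at -0.11 ± 0.13 (SE), and a further kept Furin probe at 0.22 ± 0.24 (0.519 over all kept probes). Furin lost its call without any 1 of WT replicates 1 and 3 or the KO arrays, and Aph1a with 4 of the arrays left out in turn, all but WT replicate 2 and KO replicate 1. With the mean of its probes Adam17 was at 0.22 and did not pass (0.164).

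The Fringe enzymes add sugars that set which ligands a receptor answers. Mfng fell by 0.86 ± 0.15 (SE, adjusted p = 0.00375), and a further probe fell by 0.49 ± 0.14 (0.0311 over all kept probes). Lfng was detected on all 3 KO arrays and none of WT, so it passed the detection filter only through the group where it was high. In the main setting its KO mean was at least 1.14-fold higher, a bound explained below that allows for no spread between arrays. Measured means for Lfng were 4.98 in WT and 5.54 in KO, and it lost its call without background correction. With no detection filter its adjusted p was 0.0105. Of the 4 tested genes of receptor glycosylation, these were the 2 that passed, against 36.9% of all genes.

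Of 9 tested corepressor genes of the RBPJ complex, 4 rose and 1 fell, or 44.4% and 11.1%, against 19.7% and 17.1% of all genes. Tle2 and Ctbp2 are among the 4, so the 44.4% includes genes that passed the detection filter only through the KO arrays. Tle2, a Groucho-type corepressor, was detected on the 3 KO arrays and none of WT. It passed the detection filter only through the group where it was high. In the main setting its KO mean was at least 1.32-fold higher, with measured means of 4.84 and 5.75. Without background correction the Tle2 rise was 0.33. The corepressor gene Ctbp2 also passed the filter only through the KO arrays. In the main setting it was at least 1.34-fold higher, with measured means of 5.24 and 5.78. Such bounds set the KO mean against the lowest normalized signal called detected on each WT array. Where the gene's own signal was higher, that was used instead. The bounds hold for the main setting only and allow for no spread between arrays. Without background correction the Ctbp2 rise was 0.19, and the folds of Tle2 and Ctbp2 were then smaller than their bounds. The Groucho gene Tle4 rose by 0.59 ± 0.15 (SE, adjusted p = 0.015), and its relative Tle3 fell by 0.50 ± 0.12 (0.0122). Further Tle3 probes were at -0.98 ± 0.18 (0.00501 over all kept probes), -0.53 ± 0.20 (0.0716) and -0.49 ± 0.25 (0.174). With no detection filter the adjusted p was 0.00215 for Tle2 and 0.029 for Ctbp2. Ctbp2 lost its call without background correction or without WT replicate 1 or 2, and Tle4 without WT replicate 1 or KO replicate 3.

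Among 14 genes of receptor trafficking and turnover, 4 rose and 1 fell, or 28.6% and 7.14%, against 19.7% and 17.1% of all genes. Mib1, the ubiquitin ligase that activates ligands, fell by 0.69 ± 0.16 (SE, adjusted p = 0.0114), while Mib2 rose by 0.45 ± 0.15 (0.0402). The Deltex genes Dtx3l and Dtx4 rose by 0.46 ± 0.12 (0.0185) and 0.46 ± 0.13 (0.0276). Neurl1a, the remaining gene of the 4, rose by 0.39 ± 0.12 (0.0312). It was detected on the 3 KO arrays and no WT array. The 28.6% thus includes a gene that passed the detection filter only through the group where it was high. Mib2 lost its call without any 1 of 5 arrays, all but KO replicate 3, Dtx3l without KO replicate 2 or without either of WT replicates 1 and 3, and Dtx4 without background correction or without any 1 of 4 arrays, all but WT replicate 2 and KO replicate 1. A further Dtx3l probe was at -0.23 ± 0.20 (SE), and with the mean of its probes the gene was at 0.12 and did not pass (0.53).

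Of the other HES and HEY genes, Hes6 and Heyl were tested and neither passed by limma, with 1 of the 2 at an unadjusted p under 0.05. Hes6 was at -0.47 ± 0.19 (SE, adjusted p = 0.0756). A further probe of it fell by 0.93 ± 0.23 (0.0177 over all kept probes), and the gene passed in 9 of 17 alternative settings, including scaling to a common median (-0.59, 0.0186), no background correction (-0.45, 0.0456) and the mean of its probes (-0.72, 0.031). Heyl was at 0.11 ± 0.18 (0.649), and at -0.07 without KO replicate 1.

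Of 14 further genes known to respond to NOTCH in T cells, 6 fell, 2 rose and 6 did not pass. That is 42.9% lower and 14.3% higher, against 17.1% and 19.7% of all genes. Their median change was -0.38. Besides Ptcra, the proto-oncogene Myc fell by 1.75 ± 0.16 (SE, adjusted p = 0.000406), the growth factor receptor gene Igf1r by 0.94 ± 0.15 (0.0024) and the cyclin gene Ccnd1 by 0.76 ± 0.15 (0.00514). Myc, the gene that the N-Me enhancer belongs to, is 1 of the 6 that fell. It read 8.95, 8.75 and 9.04 in WT and 7.42, 6.95 and 7.11 in KO, with no overlap. The 2 that rose were Ccnd3, another cyclin gene, by 0.63 ± 0.13 (SE, adjusted p = 0.00681) and Trib2 by 0.55 ± 0.13 (0.0114). A further Igf1r probe fell by 0.56 ± 0.18 (SE, 0.0423 over all kept probes), and another was at 0.21 ± 0.12.

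**Figure D3:**
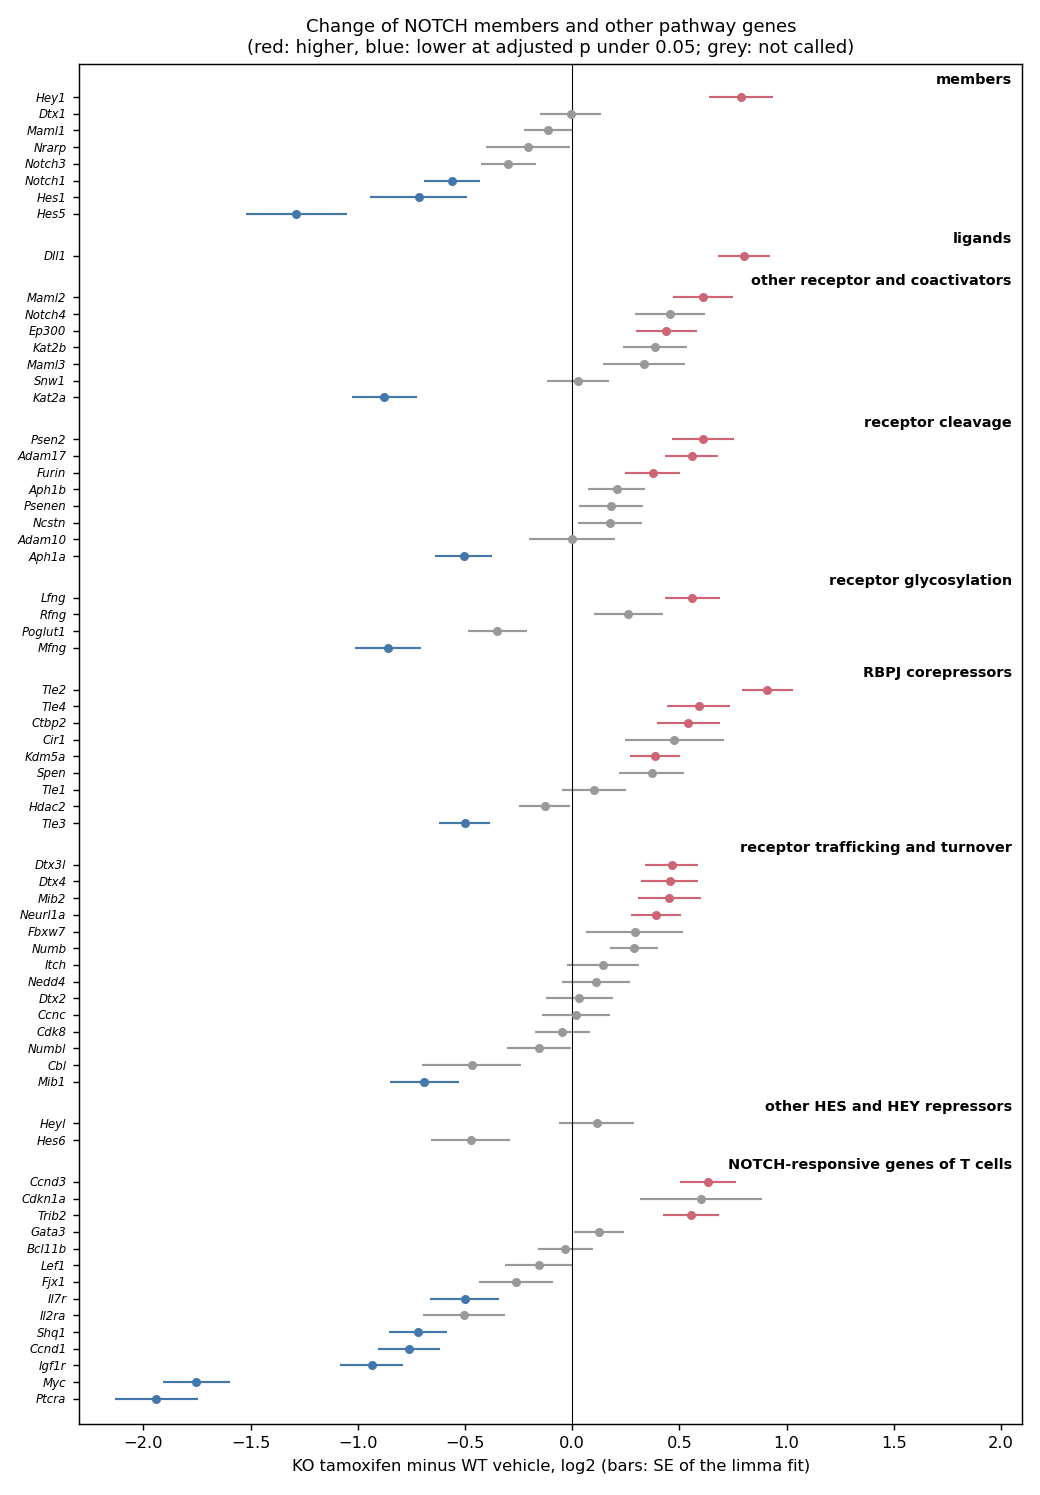
Change between groups (horizontal axis, KO minus WT, log2, with the SE of the limma fit) for the 8 tested members and the 59 other tested pathway genes, by list. Red marks genes higher and blue genes lower at an adjusted p under 0.05, and grey the others. Both directions occur among the members and in 6 of the 8 other lists.

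Over 17 alternative settings, a 2-fold minimum not among them, Notch1, Hes5 and Hey1 passed the test in each, Hes1 in 13, Notch3 and Nrarp in 1 each, and Maml1 and Dtx1 in none. The change of Notch1 ranged from -0.70 to -0.49, that of Hes5 from -1.52 to -0.73 and that of Hey1 from 0.39 to 0.92. With a 2-fold minimum as well, 1 member was lower, Hes5, and 0 were higher.

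**Figure D4:**
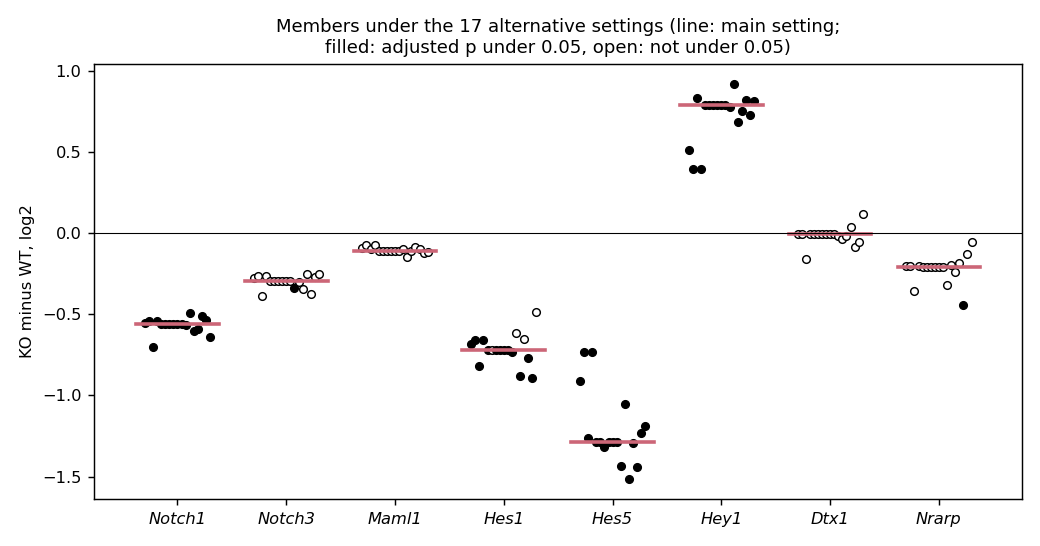
Change of each member (vertical axis, KO minus WT, log2) under the 17 alternative settings. Each point is 1 setting, filled where the adjusted p is under 0.05, and the red line is the value of the main setting. All Notch1, Hes5 and Hey1 points are filled, while Hes1 has 4 open points.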

How the data were processed

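Total RNA was labelled with biotin and measured on Illumina mouse bead arrays, per the labels. The deposited raw table pairs, per the file headers, 1 intensity per probe and array with 1 detection p-value. The deposited intensities are neither background-subtracted nor normalized between arrays, as array medians of 121.8 to 132.4 and lowest signals of 89.7 to 95.1 show. The deposited log2 table equals the quantile-normalized raw signals within 0.011 on every array, with medians of 7.01. It is neither centred nor turned. The scanner software is not given in the sources used here.

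Groups and replicate numbers came from the titles, which call the arrays biological replicates. Intensities were processed with neqc of limma 3.58.1 in R 4.3.3, whose negative controls are here inferred from detection p-values. It corrects background, adds 16, applies quantile normalization and gives log2 values. Probes detected at p under 0.05 on at least 3 arrays were kept (19082). Per the platform annotation, 34885 probes had 1 symbol, 18 several and 10378 none. Of these, 34807 were updated through a RefSeq table (GRCm38.p6). The probe with the highest mean stood for its gene. lmFit and eBayes, 2-sided, compared KO with WT over 10209 genes, with Benjamini-Hochberg adjustment and a threshold of 0.05. Intervals are 95% intervals of that fit. Where arrays are left out, normalization and genes were kept. A list's summed signal adds the linear normalized signals of its tested genes.

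The members, lists and tests were chosen with earlier results of these data known. Named were all members, per list up to 4 called genes ranked by size of change or else up to 2 with the smallest p, Myc and Ptcra, and the 3 genes most like each of the 2 called members with the largest change. Dll3, Dll4, Jag1, Jag2, Notch4, Neurl1a, Ccnd3, Trib2, Kdr, Cd5 and Cd8a were named outside this rule, after their values were seen. So were the marker genes. The number of arrays limits the precision. No column of sample values was left aside. Alternatives were other background corrections, median scaling, the deposited log2 table, other filters, the mean of a gene's probes, each probe tested alone, array weights, eBayes with trend and robust settings, the replicate number as a block, omission of each array, and a 2-fold minimum. Figures used matplotlib 3.10.9.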

Additional observations from a re-analysis of the deposited data

How the results depend on the processing

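The counts of 3 members lower and 1 higher were 1 and 0 with a 2-fold minimum, 2 to 4 and 1 with single arrays left out, and otherwise within 1.5 times. Among the other pathway genes the 17 higher became 11 when scaled to a common median, 0 with a 2-fold minimum and 9 to 15 with single arrays left out (9 without WT replicate 1 and 10 without WT replicate 3). The 11 lower became 17 when every kept probe was counted, 2 with a 2-fold minimum and 9 to 13 with single arrays left out. Over all genes, the 2015 higher and 1748 lower became 499 and 323 with a 2-fold minimum, 3004 and 3143 when every kept probe was counted, and 1342 to 2092 and 1143 to 1837 with single arrays left out, lowest without WT replicate 3 for higher and without WT replicate 1 for lower. Over all genes, the counts without KO replicate 1, 2092 higher and 1837 lower, were larger than in the main setting. With array weights they were 2266 and 1989. The causes of these shifts and of the drop to 11 were not tested. With single arrays left out, the log2 change of Dtx1 ranged from -0.083 to 0.12 and that of Heyl from -0.068 to 0.27, so both turned sign. Of the 22 other pathway genes named by the rule and called, 12 passed under every alternative they were tested in other than the 2-fold minimum. Tle2, among them, passed the detection filter only through the KO arrays and was not tested where detection on all 6 arrays was required. With the replicate block 3 members were lower and 1 higher, and 12 other pathway genes rose and 12 fell. Deviations of same-numbered arrays correlated at 0.172, 0.119 and -0.0804, and those of differently numbered arrays at -0.257 to 0.206. With 3 arrays a group, these values cannot settle whether the numbers pair the arrays. Dim genes such as Hey1, Hes5 and Dll1 are limited by signal over background, and their folds shrink without background correction.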
